A study of Mus musculus with 7 samples.

Results

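Glycolysis turns glucose into pyruvate in the cytosol, and its genes are followed here together with the hypoxia response in the follicular cells of the thyroid (TFCs), which line its hormone-storing follicles. The members are 37 named genes of the 30879 in the expression table. They were chosen by their known roles, with earlier results of these data known. There are 4 transporters of glucose or lactate, 10 genes of upper glycolysis, 5 of lower glycolysis and 3 that set the fate of pyruvate. The others are 4 of the hypoxia-inducible factors (HIF) and the enzymes that hydroxylate them, and 11 further HIF target genes. All 37 had a row in the table. In the background biology, HIF-alpha proteins are hydroxylated when oxygen is present and are then degraded. When oxygen falls they persist, bind DNA with a partner, and raise the transcription of most glycolytic genes and of genes for iron, matrix, mitochondrial turnover and vessel growth. The thyroid gland is densely vascularized, whereas cells in culture receive oxygen from the medium.

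Single cells were profiled by SORT-seq, which sorts live cells into 384-well plates and counts 3′ tags of messenger RNA with unique molecular identifiers (UMIs). The samples were 2 of primary thyroid tissue, 2 of early passage and 3 of late passage mouse TFC organoids (TFCOs), all from wild type C57BL/6 mice and without treatment. TFCOs are cystic cultures in basement membrane extract, kept in a medium with R-spondin 3, the TGF-beta receptor inhibitor A83-01, forskolin, EGF and FGF10, and the study derived them from female mice. The tissue was dissociated with collagenase and then TrypLE and the TFCOs with TrypLE alone, which cannot be told apart from the contrast of tissue and TFCOs. The labels do not say which samples share an animal or a line, so the p values measure the spread between these samples only. Early and late stand for the passage stage in the labels, and sample numbers only name samples.

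Levels are mean UMIs per 10000 UMIs of a cell, over cells with at least 1000 UMIs. All 1457 such TFCO cells were used, and in tissue the 76 follicular (TFC-like) cells, 40 in tissue 1 and 36 in tissue 2. A further 48 and 54 tissue cells stayed unnamed and were not used as TFC-like. Among them was a cluster of 56 cells whose highest marker list was the follicular one. Of the 14 follicular markers, 13 reached the test minimum of 0.5 in TFC-like cells of at least 1 tissue sample. In at least 1 TFCO sample 10 did. The tissue cells held 111361 and 528157 UMIs and the TFCO samples from 1962236 to 4690869, so tissue levels are the less precise. In tissue 2, 2 cells alone held 268847 and 151110 UMIs. Thyroglobulin took 17.6 and 12.8% of the tissue UMIs and 0.685 to 1.54% of those in TFCOs. Tissue TFC-like cells also held more UMIs of other cell types. The summed level of 10 immune markers was 9.73 and 4.63 in tissue and at most 0.231 in TFCOs. Cd74 alone made up 8.91 and 3.88 of the tissue sums, while Ptprc and Cd52 overlapped between tissue and TFCOs. The sum of 4 C cell markers was 4.37 and 3.21 against at most 0.124. That of 10 endothelial markers was 7.76 and 7.37 against 1.35 to 2.44. That of 5 erythroid markers was 5.45 and 1.59 against at most 0.0299. Well barcodes are shared by the plates (384 in all, 305 of them on all 7). The level of 5 members (Egln3, Ankrd37, Hif1a, Mxi1 and Ldha) followed the barcode with correlations of 0.0525 to 0.105. Over all genes, 4174 of the 19498 with a value had a correlation over 0.05, so this is not particular to the members.

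The HIF pathway acts through a short DNA motif, so the sequence upstream is shown for members that passed a threshold in the comparisons below. Bnip3 is shown as well, although it was below the test minimum and was not tested. The core motif was searched as ACGTG and GCGTG on both strands, where the palindrome CACGTG counts on each strand. The windows of 300 bases around RefSeq transcript starts (250 before, 50 after, GRCm38.p6) covered 33 of the 37 members with 50 windows (Bnip3l, Ndrg1, Epas1 and Slc2a3 have no entry). The motif was in 40 of them (80.0%), against 43.8% of all 32851 windows. The mean number per window was 1.90 in members and 0.802 in all windows. Member windows also had a mean GC content of 62.3%, against 53.8% in all, and the part of base composition in the difference was not tested. The 250 bases before the start follow, 5′ to 3′ on the gene's strand, with every match in capitals and, where a gene has several starts, from the window with most matches. A match is a string of letters, not a shown binding site.
Pfkfb3: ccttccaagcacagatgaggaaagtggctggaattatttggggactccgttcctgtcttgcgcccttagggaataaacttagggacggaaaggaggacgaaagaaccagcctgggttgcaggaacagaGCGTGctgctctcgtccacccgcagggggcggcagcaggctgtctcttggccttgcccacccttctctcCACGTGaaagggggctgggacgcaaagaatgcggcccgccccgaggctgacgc
Pgam1: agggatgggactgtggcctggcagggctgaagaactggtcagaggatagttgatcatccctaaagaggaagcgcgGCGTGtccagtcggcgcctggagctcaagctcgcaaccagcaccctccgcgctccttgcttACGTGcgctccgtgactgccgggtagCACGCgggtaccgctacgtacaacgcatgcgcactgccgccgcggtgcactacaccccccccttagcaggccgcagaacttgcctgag
Egln3: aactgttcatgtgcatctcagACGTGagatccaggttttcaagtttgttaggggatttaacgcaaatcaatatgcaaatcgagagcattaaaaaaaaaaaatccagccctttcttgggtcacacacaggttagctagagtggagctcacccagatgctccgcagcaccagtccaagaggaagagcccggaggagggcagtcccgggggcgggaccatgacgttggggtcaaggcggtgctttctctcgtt
Pfkl: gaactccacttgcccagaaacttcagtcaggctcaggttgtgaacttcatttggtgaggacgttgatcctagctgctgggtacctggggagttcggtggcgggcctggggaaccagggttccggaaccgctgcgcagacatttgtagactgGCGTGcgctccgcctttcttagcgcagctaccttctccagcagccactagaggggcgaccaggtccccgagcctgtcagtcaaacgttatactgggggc
Aldoa: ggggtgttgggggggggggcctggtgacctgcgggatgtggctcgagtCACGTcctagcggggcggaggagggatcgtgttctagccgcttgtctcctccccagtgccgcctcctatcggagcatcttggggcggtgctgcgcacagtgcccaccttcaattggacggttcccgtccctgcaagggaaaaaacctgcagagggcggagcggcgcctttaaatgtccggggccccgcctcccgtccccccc
Bnip3: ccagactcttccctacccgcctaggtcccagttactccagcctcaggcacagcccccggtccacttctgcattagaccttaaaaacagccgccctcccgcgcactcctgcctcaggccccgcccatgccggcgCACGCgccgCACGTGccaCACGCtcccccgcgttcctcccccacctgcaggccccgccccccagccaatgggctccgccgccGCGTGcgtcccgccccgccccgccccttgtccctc
These windows lie at chr2:11502091-11502340 (Pfkfb3), chr19:41911621-41911870 (Pgam1), chr12:54203875-54204124 (Egln3), chr10:78009808-78010057 (Pfkl), chr7:126799179-126799428 (Aldoa) and chr7:138909507-138909756 (Bnip3). Bnip3, which encodes a receptor for the removal of mitochondria, had 5 matches in 250 bases, and Pfkfb3 and Pgam1 had 3 each. Egln3, Pfkl and Aldoa had 1 each.

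**Figure D1:**
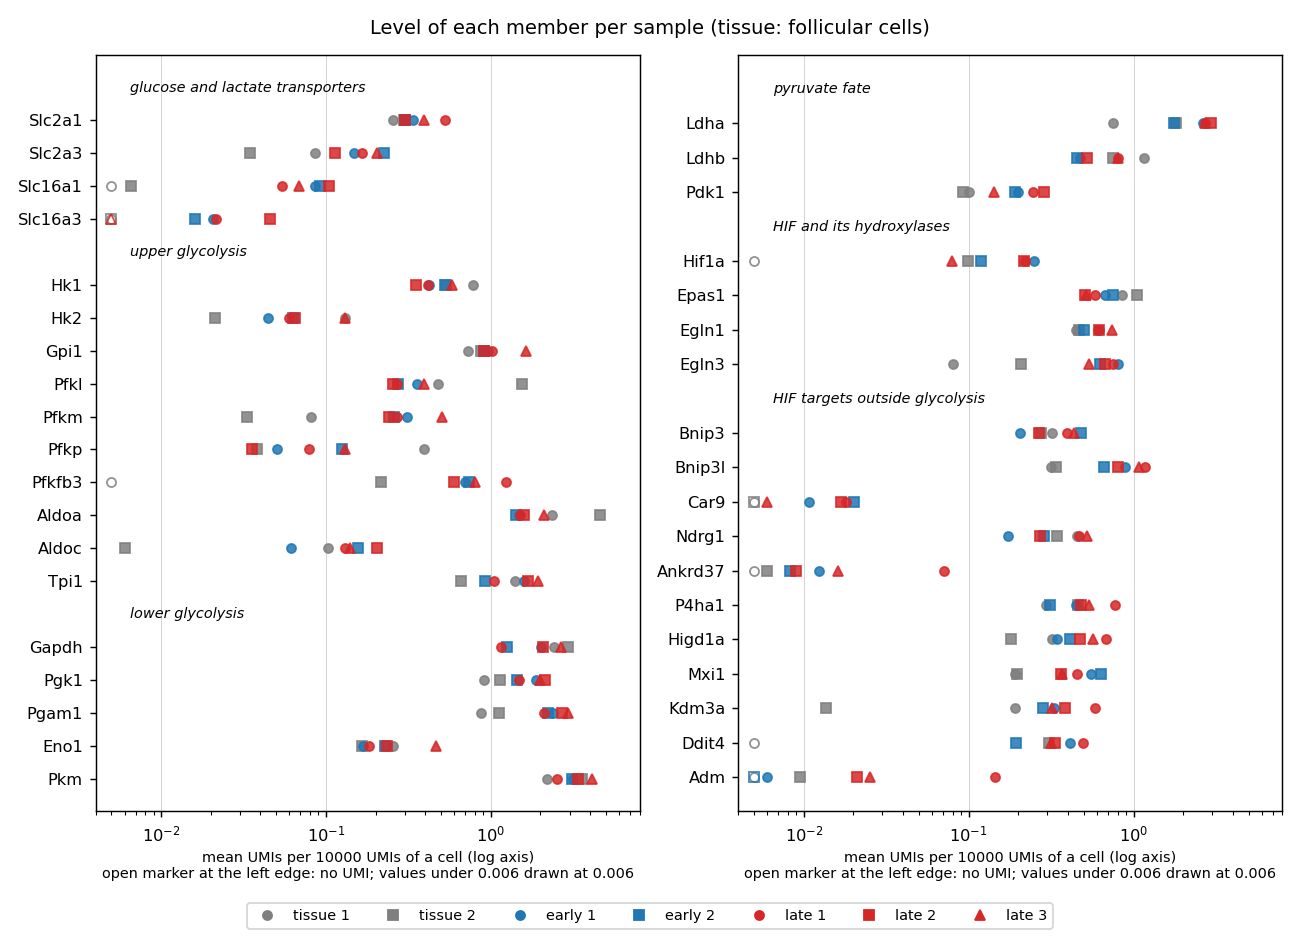
Level of each of the 37 members in each sample, in mean UMIs per 10000 UMIs of a cell on a log axis, grouped by role. Grey stands for tissue TFC-like cells, blue for early and red for late passage TFCOs, and marker shape gives the sample. For Pfkfb3, Egln3, Pgam1 and Bnip3l all 5 TFCO samples lie to the right of both tissue samples.

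Most members were detected at low levels. The mean over the 5 TFCO samples was at least 0.5 in 15 of the 37 members and under 0.1 in 7 (Slc16a1, Slc16a3, Hk2, Pfkp, Car9, Ankrd37 and Adm). Among the transporters, Slc2a1, the widely expressed glucose transporter, was at 0.256 and 0.298 in tissue, at 0.337 and 0.303 in early and at 0.529, 0.300 and 0.395 in late passage TFCOs. The tissue values rest on 3 and 17 UMIs when summed over cells, with exact Poisson 95% intervals of 0.0556 to 0.787 and 0.188 to 0.515 per 10000. The first interval holds all 5 TFCO values and the second 4 of them, so no difference was detectable at this depth. Car9, a carbonic anhydrase on the cell surface and a strongly HIF-dependent gene, had no UMI in tissue TFC-like cells, where 3 UMIs would be 0.269 and 0.0568 per 10000. It stayed between 0.00336 and 0.0203 in TFCOs. Hif1a, the widely expressed HIF-alpha subunit that is mainly set at the protein level, was at 0 and 0.0985 in tissue. It was at 0.248, 0.119, 0.220, 0.217 and 0.0790 in early 1 and 2 and late 1 to 3. The tissue values rest on 0 and 14 UMIs, and the exact Poisson interval of tissue 1 reaches 0.331 per 10000. From summed UMIs tissue 2 was at 0.265 and the TFCO samples were at 0.0856 to 0.294, so no difference was detectable.

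Other scarce members were below the minimum for the test and are given by their levels only. Mxi1, which antagonizes MYC, was at 0.190 and 0.195 in tissue and at 0.555, 0.632, 0.457, 0.363 and 0.370 in TFCOs. Pfkm, the muscle-type phosphofructokinase, was at 0.0816 and 0.0330 in tissue (1 and 8 UMIs) and between 0.241 and 0.504 in TFCOs. Pdk1, the kinase that shuts pyruvate dehydrogenase, was at 0.0998 and 0.0930 in tissue (2 and 9 UMIs) and between 0.143 and 0.288 in TFCOs. Slc2a3, a glucose transporter of high affinity, was at 0.0855 and 0.0346 against 0.113 to 0.225, and Slc16a1, a lactate transporter, was at 0 and 0.00655 against 0.0544 to 0.105. These tissue values depend on how cells are weighted. From UMIs summed over the cells of tissue 2, Mxi1 was at 0.454, Pdk1 at 0.170, Slc2a3 at 0.227 and Slc16a1 at 0.0757 per 10000, each above at least 1 TFCO sample on that scale. Pfkm was at 0.152, below the 0.245 to 0.531 of the TFCO samples on that scale. Tissue and TFCO values overlapped in Hk2 (0.130 and 0.0212 against 0.0444 to 0.131), the inducible hexokinase, in Pfkp (0.393 and 0.0383 against 0.0355 to 0.130), in Eno1 (0.255 and 0.166 against 0.168 to 0.464), the main enolase, and in Aldoc (0.103 and 0.00184 against 0.0617 to 0.204).

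The first comparison set TFCOs against TFC-like cells taken straight from the gland. Of the 37 members 16 reached the minimum for the test, a mean of 0.5 over the 3 groups, and 4 of these passed the threshold with limma (adjusted p under 0.05 over all 4347 genes tested). Pfkfb3, Pgam1 and Egln3 were higher in TFCOs and Pfkl was lower. The share of members past the threshold, 4 of 16, stood beside 20.8% of all tested genes (15.5% higher and 5.36% lower), so it is close to that of genes at large. The median log2 difference was 0.17 over the members and 0.22 over all genes tested. When each sample was centred on its median gene, the median over all genes was 0.04 and the calls shifted from 673 of 906 higher to 281 of 639 higher, and the members called were then 0 higher and 2 lower.

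Pfkfb3 encodes the kinase and phosphatase that makes fructose 2,6-bisphosphate, the main activator of phosphofructokinase. Its level was 0 and 0.215 in tissue (0 and 24 UMIs). It was 0.693 and 0.740 in early and 1.23, 0.600 and 0.804 in late passage TFCOs, so the groups did not overlap. The difference on the scale of log2(level + 1) was 0.70 (limma adjusted p = 0.0324, SE 0.20). Pfkl, the liver-type phosphofructokinase that this activator acts on, showed the opposite direction. It was at 0.480 and 1.55 in tissue and at 0.355, 0.273, 0.270, 0.255 and 0.394 in TFCOs (early 1 and 2, late 1 to 3), lower in all 5. The log2 difference was -0.57 (limma adjusted p = 0.0495, SE 0.19). The high value of tissue 2 depends on how cells are weighted, since 23 UMIs summed over its cells gave 0.436 per 10000 (exact Poisson interval 0.276 to 0.653). On that scale tissue 1 was at 0.359 (4 UMIs) and the TFCO samples were at 0.252 to 0.411. Late 3, at 0.411, then lay above tissue 1, so the groups overlapped.

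Pgam1, the phosphoglycerate mutase of lower glycolysis, was at 0.872 and 1.12 in tissue (11 and 79 UMIs) and at 2.37, 2.23, 2.09, 2.71 and 2.94 in TFCOs. The mean was 2.47 ± 0.348 (SD, n = 5) in TFCOs and 0.994 (n = 2) in tissue. The log2 difference was 0.78 (limma adjusted p = 0.0367, SE 0.24). Of its transcript stretches of 50 bases, 36.2% also occur in other genes, Pgam1-ps2 above all, so its level is uncertain. Egln3, a prolyl hydroxylase that marks HIF-alpha for degradation and is itself a HIF target, was at 0.0798 and 0.206 in tissue (1 and 9 UMIs) and at 0.800, 0.622, 0.748, 0.675 and 0.533 in TFCOs. The log2 difference was 0.56 (limma adjusted p = 0.0267, SE 0.15), and of the members Egln3 followed the well barcode most (correlation 0.105). Its relative Egln1, the hydroxylase that sets HIF activity in most cells, was at 0.446 and 0.467 in tissue and at 0.501 to 0.742 in TFCOs and did not pass.

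**Figure D2:**
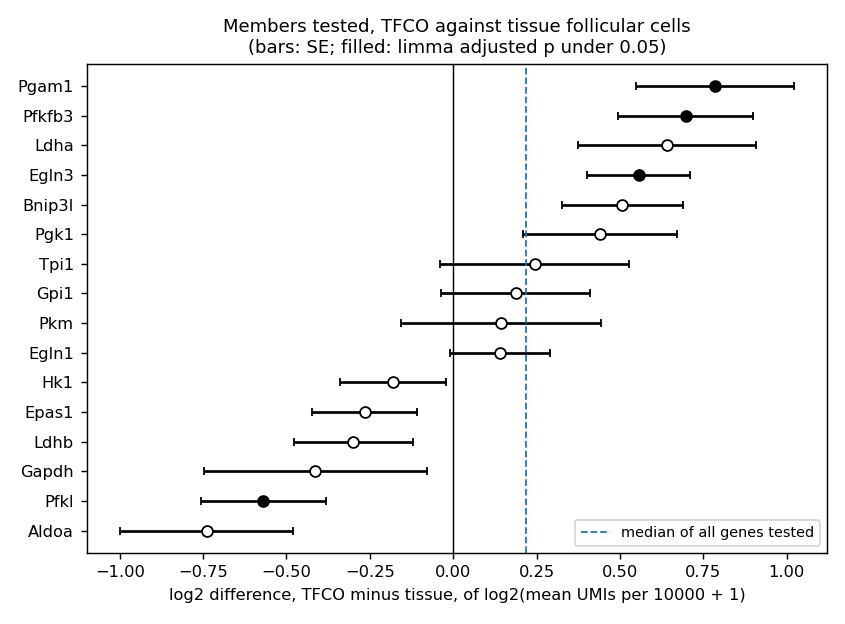
Difference of log2(mean UMIs per 10000 + 1) between TFCOs and tissue TFC-like cells for the 16 members tested, with bars of 1 SE on each side. Filled points passed the limma threshold, 3 to the right of 0 and 1 to the left, and the dashed line marks the median of all genes tested at 0.22.

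A further 3 members had an unadjusted p under 0.05 without passing the adjusted threshold, so 7 of 16 were under it, beside 37.5% of all genes tested. Aldoa, the aldolase that splits fructose 1,6-bisphosphate, was at 2.34 and 4.57 in tissue and at 1.49, 1.42, 1.51, 1.60 and 2.09 in TFCOs, a log2 difference of -0.74 (limma adjusted p = 0.0616, SE 0.26). Bnip3l, which like Bnip3 tags mitochondria for removal, was at 0.318 and 0.337 in tissue and at 0.887, 0.664, 1.17, 0.800 and 1.07 in TFCOs, a log2 difference of 0.51 (SE 0.18, adjusted p = 0.0656). In both genes the groups did not overlap. Ldha, the subunit of lactate dehydrogenase that favours lactate, was at 0.746 and 1.82 in tissue and at 2.63, 1.75, 2.72, 2.94 and 2.73 in TFCOs, where early 2 lay below tissue 2 (log2 difference 0.64, SE 0.27, adjusted p = 0.103). The other 9 members tested (Hk1, Gpi1, Tpi1, Gapdh, Pgk1, Pkm, Ldhb, Epas1 and Egln1) had log2 differences between -0.41 and 0.44 and adjusted p values of at least 0.182.

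By role, the tested members did not move together. In upper glycolysis 1 of 6 rose and 1 fell, in lower glycolysis 1 of 4 rose, in the group of pyruvate fate 0 of 2 passed, among HIF and its hydroxylases 1 of 3 rose, and of the 11 HIF targets only Bnip3l was tested, and it did not pass. All 5 TFCO samples were above both tissue samples in 7 of the 16 members, beside 38.5% of all genes tested, and below them in 3, beside 10.8% (either way 49.3% of all genes).

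In 76 tissue cells these calls were not stable. None of the members passed without early 1, when the tissue cells with an erythroid UMI were left out (14 and 25 cells remained), when those with 2 endothelial genes were left out (21 and 20 remained), or when those with an immune UMI were left out (11 and 18 remained). The log2 differences without the cells that held an immune UMI were 0.84 for Pfkfb3, 0.93 for Pgam1, 0.33 for Egln3 and -0.76 for Pfkl.

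The other lists of the pathway, chosen like the members with earlier results of these data known, are given beside the 20.8% of all tested genes that passed. Of 25 other genes of glycolysis and glucose use 5 were tested and Pygl, the liver glycogen phosphorylase, rose (log2 difference 1.16, SE 0.28, adjusted p = 0.0158, limma). It was at 0.787 and 0.635 in tissue and at 2.62, 2.17, 2.90, 2.75 and 4.38 in TFCOs. Of 7 genes of the pentose phosphate pathway 5 were tested and Pgls, the lactonase of its second step, fell. The log2 difference was -1.64 (SE 0.20, adjusted p = 0.000524, limma), from 2.90 and 4.77 in tissue to between 0.439 and 0.658 in TFCOs. The tissue values rest on 29 of 111361 and 61 of 528157 UMIs. That of tissue 2 depends on how cells are weighted and is lower when UMIs are summed over its cells. Of 28 other HIF targets 8 were tested and Errfi1, a feedback inhibitor of the EGF receptor, rose (0.90, SE 0.30, adjusted p = 0.0497, limma). Errfi1 was at 0.212 and 0.388 in tissue (3 and 12 UMIs), at 2.90 in late 1 and at 0.884 to 1.45 in the other TFCO samples. None of 5 genes for the entry of pyruvate into mitochondria and none of 2 further HIF regulators passed.

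Late and early passage TFCOs were compared to ask whether these genes change with time in culture. None of the 16 members passed with limma, beside 0.023% of all tested genes, and none had an unadjusted p under 0.05, beside 20.6% (894) of all genes. The log2 differences of the members ran from -0.16 to 0.27, with SEs from 0.097 to 0.22. All 3 late samples lay apart from both early samples in 4 of the 16, beside 42.2% of all genes tested. Differences of this size were not detectable above the spread between samples. The share over all genes was not stable, with 413 genes called when a term for the likeness of early 1 and late 2 was added and 355 without early 1, while the members called were 0 in both fits.

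The late samples differed among themselves by role. These patterns were chosen after the values had been seen and carry no test. Late 3 had the highest level of the 5 TFCO samples in 10 of the 14 glycolytic enzymes with a TFCO mean of at least 0.1 (Hk1, Gpi1, Pfkl, Pfkm, Aldoa, Tpi1, Gapdh, Pgam1, Eno1 and Pkm), beside 21.6% of 12097 genes at that level. Late 2 led in 3 of them (8.05% of genes), late 1 in 1 (22.2%), and early 1 (16.9%) and early 2 (31.3%) in none. The enzymes share their cells and their depth, so they are not independent. Gpi1, which interconverts glucose and fructose 6-phosphate, was at 1.63 in late 3 and between 0.903 and 1.02 in the other 4 TFCO samples. Gapdh, which forms 1,3-bisphosphoglycerate, was at 2.66 in late 3, at 1.16 and 2.08 in late 1 and 2, and at 2.03 and 1.26 in early 1 and 2. Pkm, the pyruvate kinase of most tissues, was at 4.10 in late 3, at 2.52 and 3.36 in late 1 and 2, and at 3.16 and 3.10 in early 1 and 2.

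Summed over all UMIs of the cells, the 16 enzymes were at 24.2 per 10000 in late 3 (exact Poisson 95% interval 23.6 to 24.9). The other TFCO samples were at 16.9 to 19.8, and tissue was at 16.1 (13.8 to 18.6) and 20.5 (19.3 to 21.8). The intervals cover counting error only. Late 3 led in 8 of the 14 after each cell was thinned to 1000 UMIs, in 9 from summed UMIs and in 10 outside proliferating clusters. Between 24.7 and 53.9% of the transcript stretches of 50 bases of Gapdh, Eno1, Pkm, Pgam1 and Pgk1 also occur in other genes, mostly pseudogenes, and this can shift the level of each between genes.

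Late 1 was highest in a different set, 5 of the 8 HIF targets with a TFCO mean of at least 0.1, beside the same 22.2% of genes. These were Bnip3l, P4ha1, Higd1a, Kdm3a and Ddit4. P4ha1, a collagen prolyl hydroxylase, was at 0.775 in late 1 and between 0.312 and 0.537 in the other TFCO samples. Kdm3a, a histone demethylase, was at 0.587 against 0.282 to 0.384. Higd1a, a small mitochondrial protein, was at 0.679 against 0.345 to 0.568, and Ddit4, an inhibitor of mTORC1 signalling, was at 0.494 against 0.193 to 0.413. Slc2a1 and Pfkfb3 were also highest there. Of the scarce targets, Adm, the peptide adrenomedullin, was at 0.144 in late 1 and at most 0.0254 elsewhere, and Ankrd37 was at 0.0705 against at most 0.0161.

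The 11 HIF targets together were at 5.17 per 10000 summed UMIs in late 1 (exact Poisson 95% interval 4.85 to 5.50). They were at 3.49 and 4.30 in late 2 and 3 and at 3.50 and 3.52 in early 1 and 2. Tissue was at 2.16 (1.38 to 3.21) and 4.03 (3.51 to 4.61), so tissue 2 lay above early 1, early 2 and late 2. Summed from mean levels over cells, tissue was at 2.08 and 2.12, below the 3.29 to 5.25 of the TFCO samples. The place of tissue 2 thus depends on how cells are weighted. In the other list of HIF targets late 1 led in 8 of 19, among them Vegfa, the vessel growth factor, at 5.56 against 2.26 to 3.08 in the other TFCO samples. A list of 10 genes of the dissociation stress response, which can rise while cells are being prepared, was also highest in late 1, at 8.37 against 3.67 to 5.60, and its part in the pattern was not tested. After thinning to 1000 UMIs late 1 led in 2 of the 8 members and late 3 in 4, so the pattern of single genes was not kept at low depth.

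**Figure D3:**
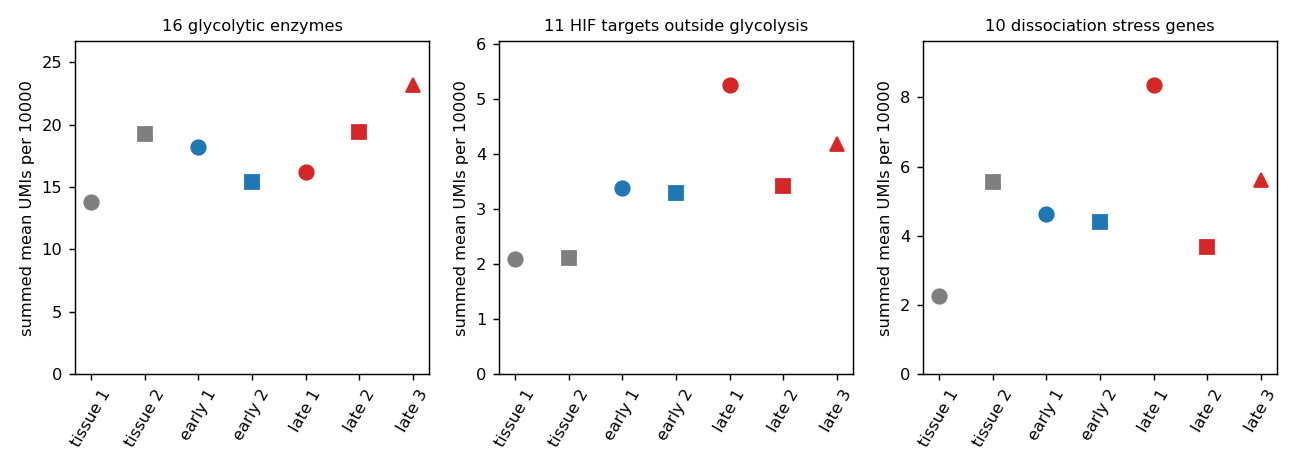
Summed mean UMIs per 10000 of the 16 glycolytic enzymes (left), the 11 HIF targets outside glycolysis (middle) and 10 dissociation stress genes (right) in each sample, with axes from 0. Late 3 has the highest enzyme sum, and late 1 has the highest HIF target sum and the highest stress sum. In the middle panel tissue 2 lies below the TFCO samples, but not when UMIs are summed over cells.

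TFCOs contain dividing cells, so proliferating clusters were compared with the other cells of the same sample. In 4 samples at least 15 cells fell in proliferating clusters (39 in early 1 and 15, 54 and 21 in late 1 to 3), and early 2, with 11, entered no test. Of 14 members tested 2 were lower in proliferating cells with limma and none was higher, beside 8.86% of 4728 genes (5.41% higher and 3.45% lower). The median log2 difference was -0.01 over the members and 0.00 over all genes tested.

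Aldoa was at 0.688, 0.632, 0.808 and 0.934 in proliferating cells and at 1.65, 1.55, 1.74 and 2.20 in the other cells of early 1 and late 1 to 3. It was lower in all 4 samples and in early 2 as well (1.14 against 1.43). The log2 difference was -0.65 (limma adjusted p = 0.000607, SE 0.10). Bnip3l was at 0.588, 0.497, 0.427 and 0.759 in proliferating and at 0.947, 1.21, 0.865 and 1.10 in other cells, and at 0.380 against 0.674 in early 2. Its log2 difference was -0.37 (limma adjusted p = 0.0336, SE 0.10), and it passed the threshold in none of the fits that left out a sample. The values of late 1 rest on 8 UMIs of Aldoa and 6 of Bnip3l in proliferating cells.

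**Figure D4:**
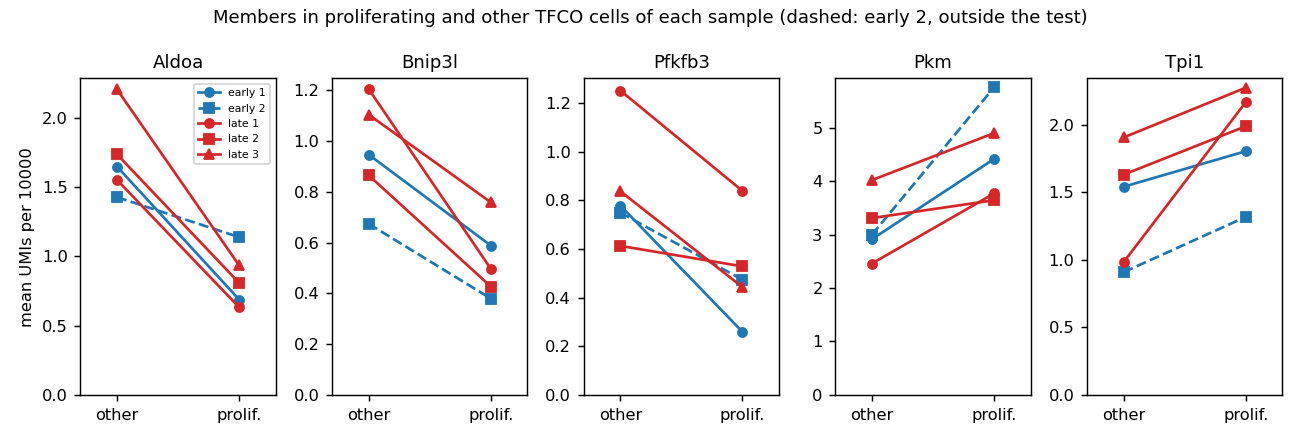
Mean UMIs per 10000 of 5 members in the other cells (left of each panel) and the proliferating cells (right) of each TFCO sample, joined by a line. Aldoa and Bnip3l fall in every sample, and the dashed line is early 2, which has 11 proliferating cells and was not tested.

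A further 3 members had an unadjusted p under 0.05 and did not pass, which makes 5 of 14 under it, beside 22.4% of all genes tested. Pfkfb3 was lower in proliferating cells of all 4 samples (log2 difference -0.30, SE 0.10, limma adjusted p = 0.0860), with 0.259 against 0.779 in early 1 and 0.529 against 0.613 in late 2. Pkm was higher in all 4 (0.32, SE 0.11, adjusted p = 0.0781), at 4.42 against 2.92 in early 1 and 3.64 against 3.31 in late 2. Tpi1, the triosephosphate isomerase, was higher in all 4 (0.29, SE 0.11, adjusted p = 0.137), at 2.17 against 0.982 in late 1. The other 9 members tested had log2 differences between -0.18 and 0.16, with adjusted p values of at least 0.310. Of the 28 other HIF targets 9 were tested and 2 passed, both lower, beside 3.45% of all genes tested, while 3 of the 9 had a positive difference. Vegfa fell by 0.56 on the log2 scale (limma adjusted p = 0.0182, SE 0.14) and Rora, a nuclear receptor, by 0.90 (SE 0.11, adjusted p = 6.42e-05). No gene of the remaining lists passed. Values after thinning are given below for Aldoa and Bnip3l only.

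Proliferating cells were deeper, with a median of 7897 to 19886 UMIs in the 4 samples against 5667 to 12184.5 in other cells. When each cell was thinned to 1000 UMIs the log2 difference was -0.41 for Aldoa and -0.84 for Bnip3l, and neither passed (adjusted p = 0.515 and 0.0534, limma). An interaction with passage was past the limma threshold in 0 of 14 members and in 0 of 4728 genes, with 104 genes (2.2%) and 0 members at an unadjusted p under 0.05. That fit held a single early sample.

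In the tissue the members were described by cell class. The classes come from clusters of the same cells, made without the members, so their values carry no test. Epas1, the HIF-alpha subunit that is known for its level in vessel walls, was at 10.0 and 10.2 in endothelial-like cells (502 and 503 UMIs) and at 4.95 and 4.59 in mural-like cells. It was at 0.846 and 1.05 in TFC-like cells, 0.346 and 0.674 in immune-like cells, and 0.507 to 0.747 in TFCOs. The level in endothelial-like cells was 29.0-fold that in immune-like cells in tissue 1 and 15.2-fold in tissue 2. Ndrg1, a stress-induced gene and HIF target, was at 1.60 and 1.62 in endothelial-like, 0.186 and 0.124 in mural-like and 0.454 and 0.341 in TFC-like cells.

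Ldhb, the lactate dehydrogenase subunit that favours pyruvate, was at 1.16 and 0.752 in TFC-like cells (16 and 51 UMIs), 0.0346 and 0.147 in endothelial-like and 0.453 and 0.433 in mural-like cells. In TFCOs it was at 0.457 to 0.802. Slc16a3, a lactate exporter of glycolytic cells, was at 0.527 and 0.350 in immune-like cells on 7 and 6 UMIs, had no UMI in TFC-like or mural-like cells, and was at 0.0906 and 0.0491 in endothelial-like cells. Bnip3 was at 0.321 and 0.273 in TFC-like and 0.0794 and 0.0286 in endothelial-like cells, on 2 to 28 UMIs. These 5 members differed at least 4-fold between a pair of the TFC-like, endothelial-like, mural-like and immune-like classes in both tissue samples. How many of all genes do so was not counted, so this number is no finding about the members. Bnip3 only just reached the limit, at 4.04-fold in tissue 1 and at 4.38-fold in tissue 2, there against a floor of 3 UMIs. Stromal-like cells (15 and 6) were too few to enter this comparison. The 16 glycolytic enzymes summed to 13.8 and 19.2 in TFC-like, 11.6 and 11.1 in endothelial-like, 10.5 and 10.2 in mural-like and 14.1 and 13.2 in immune-like cells.

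**Figure D5:**
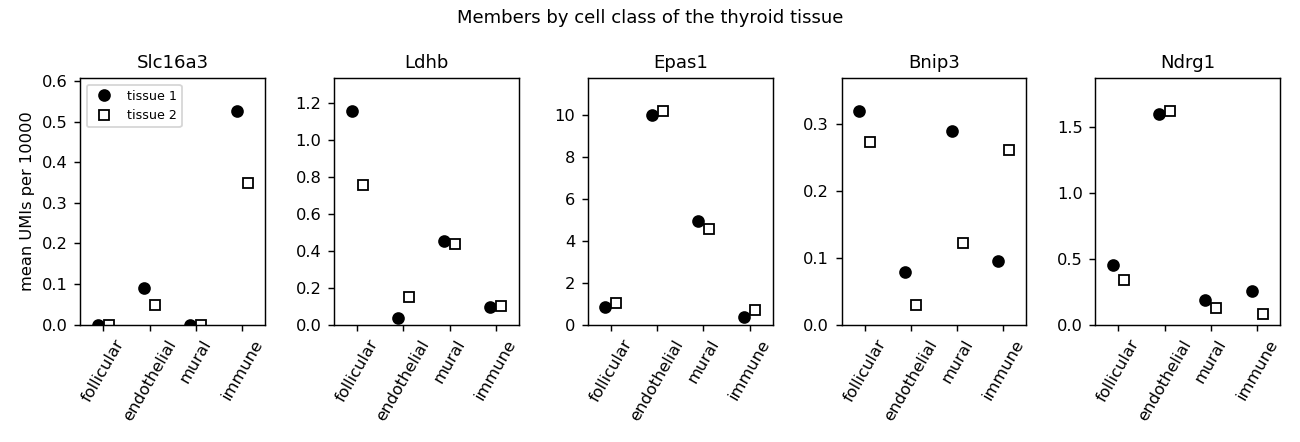
Mean UMIs per 10000 of the 5 members with a difference of at least 4-fold between classes, in TFC-like (follicular), endothelial-like, mural-like and immune-like cells of tissue 1 (filled circles) and tissue 2 (open squares). Epas1 and Ndrg1 are highest in endothelial-like cells, Slc16a3 in immune-like cells and Ldhb in TFC-like cells, whereas the Bnip3 values of mural-like cells (0.289 and 0.122) overlap those of TFC-like and of immune-like cells.

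Within single TFCO cells the members moved together only weakly. After thinning to 3000 UMIs, the Spearman correlation between the summed HIF targets and the summed glycolytic enzymes was 0.0721 in early 1, 0.0467 in early 2 and 0.0270, 0.135 and 0.0803 in late 1 to 3, over 205 to 348 cells a sample. Over 28 pairs of the 8 members with a TFCO mean of at least 1, the median correlation was 0.0707, against 0.0005 over all pairs of 2078 genes at that level. By its median over the 5 samples no pair was above 0.2, and the highest was Tpi1 with Pgk1 at 0.145, whereas in single samples Gapdh with Pgk1 reached 0.208. The 10 genes most like the HIF target sum, led by Ppp6r3 at 0.123 and Gm29260 at 0.114, were all that weak. In counts this sparse such values are no finding.

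Finally, the annotation (GENCODE M21, GRCm38) limits how far single levels can be read. 18 of the 37 members share part of their span with a gene on the other strand, among them Aldoa, Gapdh, Tpi1 and Pfkfb3, and whether the counting used strand is not given in the sources used here. Pfkfb3 spans chromosome 2 from 11471433 to 11554077 (minus strand), Pfkl chromosome 10 from 77986947 to 78010083 (minus), Pgam1 chromosome 19 from 41911923 to 41918660 (plus), Egln3 chromosome 12 from 54178981 to 54203860 (minus), and Bnip3l chromosome 14 from 66985239 to 67008877 (minus). Aldoa has a pair of adjoining models on the minus strand of chromosome 7, from 126795234 to 126800751 and from 126800790 to 126809108. Of the Bnip3l stretches of 50 bases 20.8% also occur in Bnip3l-ps, and of those of Aldoa 5.13% occur in other genes.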

How the data were processed

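Cells of mouse thyroid tissue (2 samples) and TFCOs (2 early and 3 late passage samples) were profiled by SORT-seq. Per the labels, reads were processed with Trim Galore 0.4.3, STAR 2.5.3a and Seurat on GRCm38 (mm10). The authors deposited natural log values, ln(1 + UMIs per 10000), from which whole UMIs were recovered. Plates held from 1406925 to 4703472 UMIs, and cells under 1000 UMIs were left out (2035 of 2590 cells remained).

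The members and lists were chosen with earlier results of these data known. Tissue cells were clustered with scanpy 1.11.5 (Leiden, igraph 0.11.9). The members and the genes whose level followed the well barcode (correlation over 0.05) were left out. Each cluster was named by its highest mean marker list. It stayed unnamed with fewer than 3 of those markers detected, or where another list had more genes among its 10 leading genes. A shallow cluster with no marker of its list among these also stayed unnamed. Leaving out scaling, naming by the mean and the 3 UMI floor for class ratios were decided after the clusters had been seen. The same holds for the alternatives that scaled outside Tg, left out cells with an immune UMI or the 2 deepest tissue cells, or took samples with 10 cells. Doublets were not called. In proliferating clusters the median proliferation marker was detected in at least 40% of the cells.

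Sample means were tested as log2(level + 1) with limma 3.58.1 (R 4.3.3, trended, with group weights of 0.406 for tissue and 1.43 for organoids), for genes with a mean of at least 0.5, with Benjamini-Hochberg adjustment. Proliferating and other cells were compared with the sample as a block. The procedure was tested on simulated data. Described in depth were members past the threshold, the member with the highest TFCO mean in each role, and members at least 4-fold apart in both tissue samples between classes of at least 20 cells, which left out the stromal-like class. The alternatives covered filters, scaling, weights, thinning, cell choice and leaving out each sample.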

Additional observations from a re-analysis of the deposited data

How the results depend on the processing

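The count of members past the threshold between TFCOs and tissue depended on most choices. It was 4 as reported, 8 with equal weights, 2 with a minimum of 2 per 10000, with centring on the median gene or with scaling outside Tg, and 1 with cells of at least 2000 UMIs, with thinning to 1000 UMIs or with summed UMIs without the 2 deepest tissue cells. It was 0 with no minimum, with summed UMIs, or without the tissue cells that held erythroid, endothelial or immune UMIs. Leaving out 1 sample gave 0 (early 1) to 7 (tissue 1). Over all genes, 906 of the 4347 tested were called as reported, beside 4 of 16 members. With equal weights 1799 of 4347 genes and 8 of 16 members were called, and with a minimum of 2 it was 323 of 682 and 2 of 4. With summed UMIs 141 of 4475 genes and 0 of 15 members were called. Without cells holding an immune UMI it was 16 of 4363 and 0 of 15. The higher calls were 673 of 906 as reported, 281 of 639 centred and 384 of 676 outside Tg. Clustering with the barcode-following genes kept named no follicular class and gave no value. Late against early passage gave 0 members in every alternative run, and so did the interaction, while the late against early calls over all genes went from 1 to 413 with the likeness term and 355 without early 1.

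For proliferating cells the count was 2 as reported and 1 with no minimum (79 genes in all against 419). Without the replicate block it was 1, with 145 genes called in all. It was 0 with thinning to 1000 UMIs (112 genes) and with cells scored one by one (91 genes, 2 samples), and leaving out 1 sample gave 1 each time, since Bnip3l was lost. Aldoa passed in 10 of 12 alternatives, and Tpi1 turned to -0.04165 with cells scored one by one. The median correlation of the HIF target and enzyme sums was 0.146 with all UMIs and 0.0192 at 1000 UMIs. The cause of these shifts was not tested. The 76 tissue cells limit every tissue value. Replicate numbers of tissue, early and late samples only name samples, so no pairing across these groups was used.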
